A study of Sus scrofa with 2 samples.

Results

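The oligoadenylate synthetases were followed through OAS1, OAS2 and OASL, 3 of the 34570 entries listed in the expression tables of follicular granulosa cells of the pig (Sus scrofa). These somatic cells line the ovarian follicle and nourish the oocyte. Members were taken by gene symbol, each has a single entry, and all 3 had a mean level of at least 1. The family was chosen by the measured ratios of this same comparison, in which OAS1 and OASL were among the interferon-stimulated genes with the largest differences, so the differences below are descriptions and carry no test.

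The 2 libraries came from ovarian cells of female Chinese Erhualian pigs. One was made from cells treated with SMAD4-siRNA, which targets the SMAD shared by TGF-beta, activin and BMP signalling, and the other from cells treated with NC-siRNA, the reference siRNA. Each library was 1 pool of equal RNA amounts from 3 individuals, so there are no replicates and no estimate of the spread between animals or transfections. Both groups received an siRNA, and an untreated library was not analysed here. The labels give neither the siRNA dose nor the hours of treatment, nor whether both pools came from the same animals.

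Oligoadenylate synthetases are sensors of double-stranded RNA. When they bind it, they join ATP into short 2'-5'-linked oligoadenylates, known as 2-5A, which activate a latent ribonuclease. That enzyme then cuts viral and cellular RNA and slows translation. Their genes are classical targets of interferon, switched on through a transcription complex that includes STAT2 and IRF9. OAS1 is built of a single synthetase unit and OAS2 of a pair, while OASL ends in ubiquitin-like repeats, and human OASL makes no 2-5A but strengthens signalling by the RNA sensor RIG-I.

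Levels are RPKM values, reads per kilobase of transcript, that the authors scaled by each library's upper quartile. Whole reads were recovered from the values and are lower bounds: 17394711 reads on genes in the SMAD4-siRNA library and 17680952 in the NC-siRNA library. A range in parentheses is a 95% interval from counting error alone, exact Poisson for a level and exact Clopper-Pearson for a ratio. Ranges take the recovered reads as the true reads, and would be narrower if the true reads were whole multiples of these. Reads of such libraries carry no molecular identifiers, so they are not independent molecules. SMAD4 itself was at 47.9 in the SMAD4-siRNA library and 85.0 in the NC-siRNA library, a ratio of 0.563 (0.497 to 0.639). Among granulosa markers, 10 of 13 were measured, with levels of 774 for GATA4, 225 for NR5A1 and 146 for FOXL2 in the SMAD4-siRNA library, against 748, 265 and 132 in the NC-siRNA library. Others differed more, INHBA with a ratio of 1.31 (1.22 to 1.41) and AMHR2 with 0.493 (0.266 to 0.886). The gonadotropin receptor FSHR was low, at 3.48 in the SMAD4-siRNA library and 4.93 in the NC-siRNA library, and CYP19A1, AMH and INHBB were listed at 0 in both.

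OAS1 had a level of 429 (384 to 477) in the SMAD4-siRNA library, from 334 reads, against 48.1 (33.3 to 67.1) in the NC-siRNA library, from 34 reads. The SMAD4-siRNA library was the higher one, and the counting intervals of the levels did not overlap. The ratio was 8.92 (6.26 to 13.1), or 3.16 on the log2 scale. OAS1 thereby stood at or above 81.8% of the entries detected in the SMAD4-siRNA library, and at or above 48.9% of those detected in the NC-siRNA library. Of 6595 genes with at least 368 recovered reads over both libraries and reads in each, none had a higher ratio than OAS1. That minimum is the read count of OAS1, which was chosen for its ratio, so its place follows in part from these choices. Below the minimum, RSAD2 with 291 recovered reads had a ratio of 13.8 (8.55 to 23.6). Recovered reads are lower bounds, so genes with more true reads can be missing from this set.

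OAS2, the family member with the highest level in each library, was at 1151 (1111 to 1191) in the SMAD4-siRNA library and at 568 (539 to 598) in the NC-siRNA library. These levels rest on 3208 reads in the SMAD4-siRNA library and 1437 in the NC-siRNA library, the deepest coverage in the family. The ratio was 2.03 (1.90 to 2.16), with a log2 ratio of 1.02 that lies just past the 2-fold threshold used below. OAS2 was already an abundant transcript in the NC-siRNA library, at or above 84.5% of detected entries, and reached 91.6% in the SMAD4-siRNA library. Of 1208 genes with at least 4645 recovered reads over both libraries, 13 had a higher ratio. Recovered reads are lower bounds, so this set leaves out some genes above OAS2 in both level and ratio. BST2, with 1294 recovered reads, was at 9468 in the SMAD4-siRNA library and 2218 in the NC-siRNA library, a ratio of 4.27 (3.70 to 4.95).

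OASL was the lowest of the 3 in each library. Its level was 53.4 (41.5 to 67.6) in the SMAD4-siRNA library, from 69 reads, and 3.41 (0.928 to 8.72) in the NC-siRNA library, from 4 reads. The ratio of 15.7 had the widest interval of the family (5.85 to 59.1). A single recovered read more in the NC-siRNA library would give a ratio of 12.5, and a single one fewer 20.9. Among 10350 genes with at least 73 recovered reads over both libraries and reads in each, 1 had a higher ratio. It was an entry named MED29 from the reference table. This set has the same limits as that of OAS1.

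**Figure D1:**
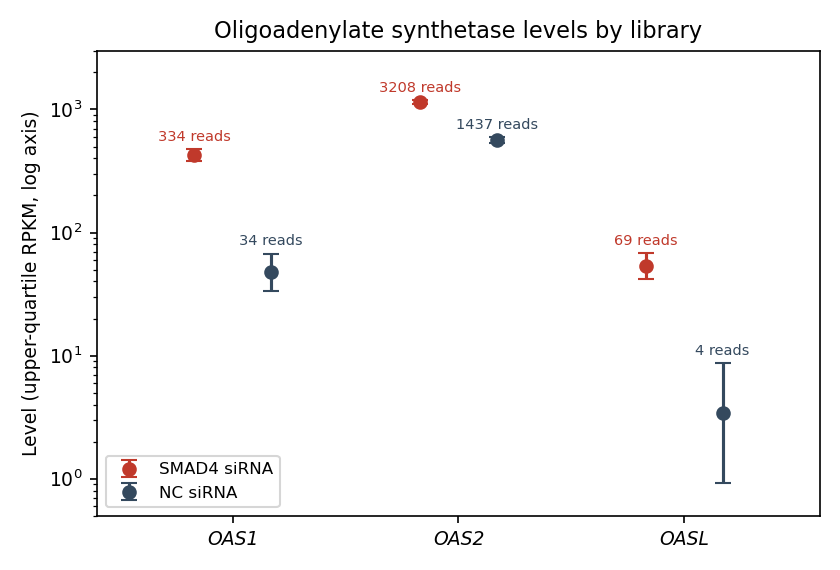
Level of OAS1, OAS2 and OASL in the SMAD4-siRNA library (red, left of each pair) and the NC-siRNA library (dark, right), in upper-quartile RPKM on a log axis, with exact 95% Poisson intervals and the recovered reads above each point. Each gene is higher in the SMAD4-siRNA library with no overlap of the intervals, and the gap is narrowest for OAS2 (ratio 2.03) and widest for OASL (ratio 15.7).

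The plot of member levels shows that the order of the genes was the same in both libraries, OAS2 above OAS1 above OASL, while the distances between them differed. OAS2 was 2.68 times OAS1 in the SMAD4-siRNA library and 11.8 times OAS1 in the NC-siRNA library. OAS2 was 21.6 times OASL in the SMAD4-siRNA library, against 167 times in the NC-siRNA library, a figure that rests on the 4 OASL reads. The ratio of OAS1 between libraries was 4.40 times that of OAS2, and their counting intervals did not overlap. The ratio of OASL was 1.76 times that of OAS1, but the OAS1 interval lay wholly inside that of OASL, so their order could not be resolved at this depth.

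The summed level of the 3 genes was 1633 in the SMAD4-siRNA library and 619 in the NC-siRNA library, 2.64-fold higher. OAS2 made up 70.5% of the sum in the SMAD4-siRNA library and 91.7% in the NC-siRNA library. OAS1 made up 26.3% and OASL 3.27% in the SMAD4-siRNA library, against 7.76% and 0.550% in the NC-siRNA library. Despite its smaller ratio, OAS2 gave 57.5% of the gain in the sum, OAS1 37.6% and OASL 4.93%. In bulk RNA, more cells that express a gene and more of its RNA per cell cannot be told apart. The sources used here do not say how reads matching more than 1 family member were assigned.

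**Figure D2:**
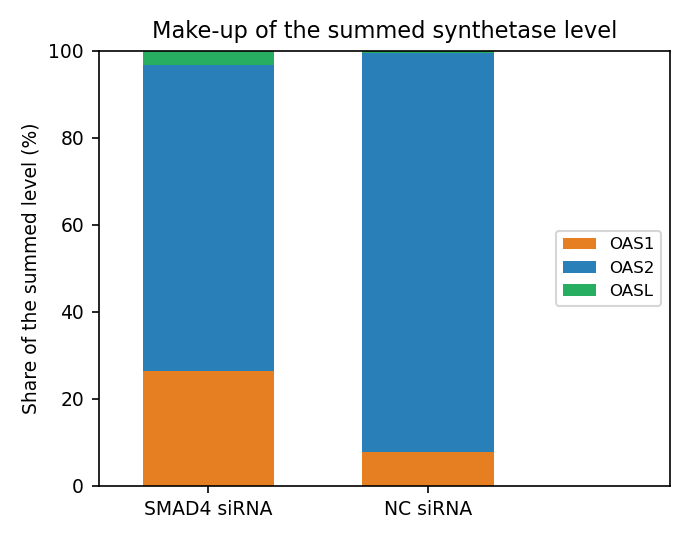
Share of the summed level (percent of OAS1 + OAS2 + OASL, in upper-quartile RPKM) in the SMAD4-siRNA library (left) and the NC-siRNA library (right). OAS2 takes 70.5% in the SMAD4-siRNA library and 91.7% in the NC-siRNA library, with OAS1 at 26.3% and 7.76%.

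On the scale of log2 (value + 1), all 3 members were higher by at least 2-fold, against 7.17% of the 16609 genes with a mean level of at least 1. All 3 also had a counting interval of the ratio wholly above 1, against 12.7% of those genes. Such a share depends on depth, and 9664 of the 16609 genes had at least 100 recovered reads. Since these values chose the family, nothing is read from the counts. Their median on that scale was 3.13, beside -0.05 over all genes measured. Large ratios were commoner at low levels. Among genes whose mean level was within a factor of 1.5 of the member's own, 5.74% of 1917 were higher by at least 2-fold around OASL, 1.54% of 2013 around OAS1 and 0.0818% of 1223 around OAS2, which was 1 gene.

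**Figure D3:**
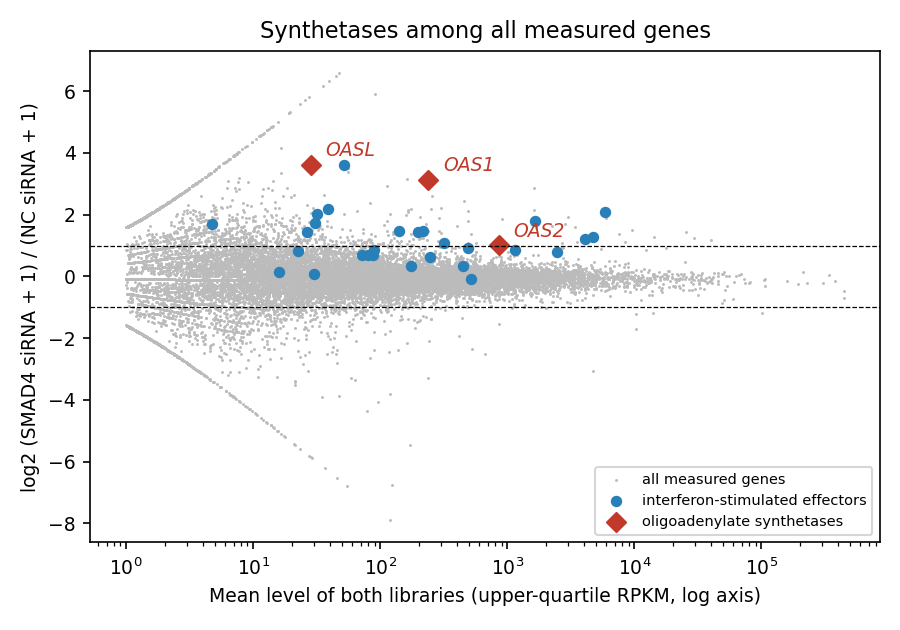
Mean level of both libraries (upper-quartile RPKM, log axis) against log2 (SMAD4-siRNA + 1) / (NC-siRNA + 1) for all genes with a mean level of at least 1 (grey), interferon-stimulated effectors (blue) and the synthetases (red diamonds). Dashed lines mark 2-fold, and the grey cloud narrows as the level increases, so that OAS2 at 1.02 lies at the edge of its neighbours while OAS1 at 3.13 and OASL at 3.63 lie far above theirs.

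Of the partners that end or restrain the 2-5A signal, PDE12 and ABCE1 were closer to even than any synthetase. PDE12, the 2'-phosphodiesterase that breaks down 2-5A, was at 146 in the SMAD4-siRNA library and 136 in the NC-siRNA library, a ratio of 1.07 (0.927 to 1.24) that counting error could give. ABCE1, the ATPase first described as a brake on this pathway and also needed for ribosome recycling, was at 73.6 in the SMAD4-siRNA library and 56.4 in the NC-siRNA library, a ratio of 1.30 (1.07 to 1.59). AKAP7, a kinase anchoring protein that in the mouse also degrades 2-5A, was at 17.1 in the SMAD4-siRNA library and 6.09 in the NC-siRNA library, on 31 and 10 reads. Its ratio of 2.82 (1.35 to 6.44) was the largest of these partners and rests on few reads. The PDE12 and ABCE1 intervals lay wholly below that of OAS2, whereas the AKAP7 interval contained it.

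Other sensors of double-stranded RNA and their adaptors had ratios well below those of OAS1 and OASL. Of 7 measured, 1 reached 2-fold and 4 had an interval wholly above 1, against 7.17% and 12.7% of all measured genes. The median of the 7 was 0.21 on the log2 scale of value + 1. DDX58, the sensor RIG-I, had the largest ratio, 2.97 (2.35 to 3.79), at 108 in the SMAD4-siRNA library and 36.5 in the NC-siRNA library. Its interval lay above that of OAS2 and below that of OAS1. DHX58, the RIG-I relative LGP2, had a ratio of 1.74 (1.61 to 1.88), below the OAS2 interval. ADAR, which edits double-stranded RNA, had 1.08 (1.01 to 1.15), and MAVS, the adaptor of RIG-I, had 0.895 (0.835 to 0.960), with an interval below 1. With scaling by total recovered reads, which adds 0.16 to each log2 ratio, the MAVS interval would include 1.

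The DNA sensor cGAS shares the nucleotidyltransferase fold of the synthetases. Its gene, listed as MB21D1 and picked out here after its values had been seen, was at 9.48 in the SMAD4-siRNA library and 2.78 in the NC-siRNA library on 15 reads and 4 reads, a ratio of 3.41 (1.08 to 14.1). The other genes of its pathway had ratios nearer to 1. TREX1, which removes DNA from the cytosol, had 1.32 (1.05 to 1.67) and IRF3, the transcription factor that cGAS signalling activates, 1.12 (1.03 to 1.21). Lower ratios belonged to ENPP1, which hydrolyses the cGAS product, at 0.771 (0.671 to 0.885), and to SAMHD1 at 0.677 (0.511 to 0.896), whose other entry was listed at 0. The median over the 6 measured genes was 0.15.

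OASL has ubiquitin-like repeats, and the ubiquitin-like modifier ISG15 has its own conjugation enzymes. All 4 of the measured ones had an interval wholly above 1, and 2 of them reached 2-fold, against 12.7% and 7.17% of all measured genes. The median of the 4 was 1.19. The ligase HERC5 had a ratio of 2.76 (2.32 to 3.30), the activating enzyme UBA7 2.69 (2.42 to 2.99), the conjugating enzyme UBE2L6 1.95 (1.79 to 2.13) and USP18, which removes ISG15, 1.62 (1.51 to 1.73). These intervals lay wholly below that of OASL. Both libraries listed ISG15 itself and HERC6 at 0. The widely expressed kinase TBK1 was at 0 too, so a listed 0 says nothing of expression.

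The measured genes that carry the interferon signal to the synthetase promoters went both ways. Of 15 receptor and signalling genes looked up, IFNAR1 and IFNGR2 had no entry. IFNAR2, IL10RB and SOCS3 were listed at 0 in both libraries. Of the 10 measured, 1 reached 2-fold, 2 had an interval wholly above 1 and 4 one wholly below 1. Over all measured genes the same shares were 7.17%, 12.7% and 21.5%. The median of the 10 was -0.11. IRF7, itself an interferon-stimulated gene, was highest at 2.18 (1.91 to 2.50), followed by the kinase JAK2 at 1.99 (1.07 to 3.84), on 35 reads in the SMAD4-siRNA library and 16 in the NC-siRNA library. The receptor kinases TYK2 and JAK1 were lowest among those with at least 20 reads, at 0.854 (0.801 to 0.910) and 0.727 (0.655 to 0.806). Of the factors that act directly on OAS genes, STAT2 had a ratio of 0.875 (0.807 to 0.948) and IRF9 of 0.889 (0.836 to 0.946). These calls depend on the scaling. Scaling by total recovered reads, which adds 0.16 to each log2 ratio, would bring 1 inside the intervals of STAT2, IRF9 and TYK2. The JAK1 interval would stay below 1, and that of IRF1 would move above 1. Of 9 interferon genes looked up, 6 had an entry, while IFNL1, IFNL3 and IFNW1 had none and could not be assessed. IFNE alone was above 0, with 3 reads in the SMAD4-siRNA library and 2 in the NC-siRNA library. IFNB1, IFNG, IFNK and the interferon alpha entries were listed at 0 in both.

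**Figure D4:**
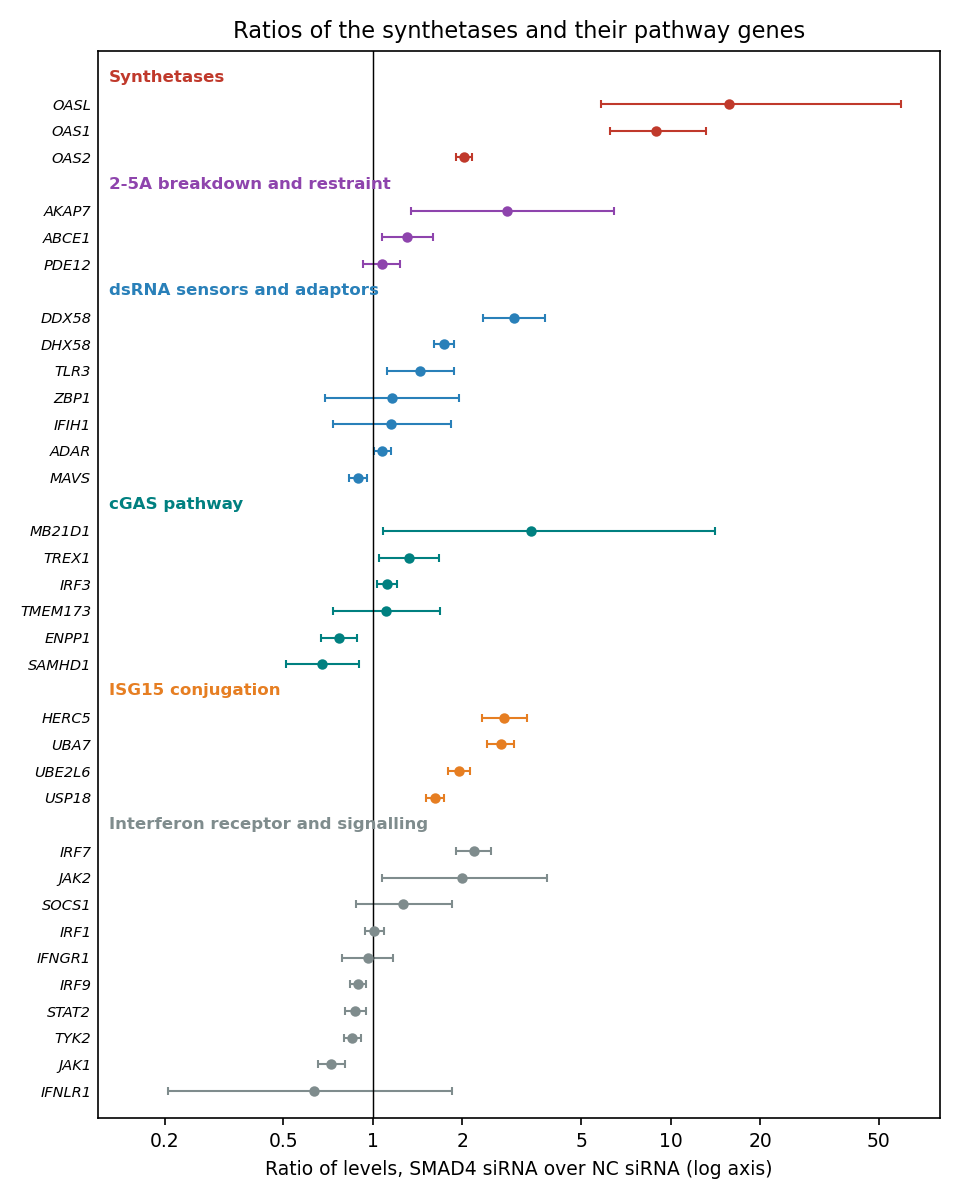
Ratio of levels, SMAD4-siRNA over NC-siRNA, on a log axis for the synthetases and the measured genes of 5 connected groups, with exact 95% counting intervals. The intervals of OAS1 and OASL begin at 6.26 and 5.85, and the plotted intervals of the other genes end below these bounds except for AKAP7 (6.44) and MB21D1 (14.1).

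Against the effectors that interferon induces beside them, OASL and OAS1 stood at the upper end and OAS2 in the middle. Of 28 effector entries measured, 14 reached 2-fold and 25 had an interval wholly above 1, against 7.17% and 12.7% of all measured genes. The median of the effectors was 1.01. With the synthetases placed among the effectors, OASL was in place 1 by ratio, OAS1 in place 3 and OAS2 in place 17 of 31. The family was chosen for the ratios of OAS1 and OASL, so their places follow from that choice. RSAD2, the antiviral enzyme viperin, stood between OASL and OAS1 at 13.8 (8.55 to 23.6), and IFIT1, which binds foreign RNA, followed at 4.76 (3.09 to 7.62). GBP2, an interferon-induced GTPase, was near the low end at 1.05 (0.754 to 1.47). TRIM25, the ubiquitin ligase that acts on RIG-I, had 1 entry at 0.944 (0.868 to 1.03) and another at 1.27 (1.04 to 1.54). By level in the NC-siRNA library the places were 7 for OAS2, 21 for OAS1 and 30 for OASL. The member with the highest level there had the smallest ratio, but that level is also the divisor of the ratio. By level in the SMAD4-siRNA library the places were 7 for OAS2, 12 for OAS1 and 24 for OASL. All these places cover the synthetases and the measured effectors. They leave out the listed IFI6, IFI27, SAMD9L and LGALS3BP, which had no entry under these symbols. Interferon-induced genes entered under other names, such as ISG12(A), described under other observations, are left out too.

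The genes with ratios most like those of the synthetases were found by the difference in log2 ratio over the 2 libraries, among genes with a symbol and at least 100 reads. Nearest to OASL were RSAD2, 0.19 away, then ASB9, a SOCS-box protein, 0.44 away, and OAS1, 0.81 away. Nearest to OAS1 were EIF2S2, a subunit of the initiation factor eIF2, with a ratio of 7.80 (4.28 to 15.6), ASB9 with 11.5 (6.07 to 24.6) and APRT, which recycles adenine, with 6.15 (4.06 to 9.67). Nearest to OAS2 were PLRG1, a spliceosome protein, LLPH and PHACTR1, a regulator of phosphatase and actin, all within 0.00429. With 2 libraries a like ratio is a weak likeness.

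OAS2 and OAS1 lie next to each other in the annotation of Sscrofa11.1, which was used for gene order alone, and OASL lies at another site of the same chromosome. None of the 10 measured genes among the nearest neighbours on either side was higher by at least 2-fold, against 7.17% of all measured genes. Their ratios ran between 0.543 and 1.16. An interval lay wholly below 1 for 7 of them and wholly above 1 for 1, against 21.5% and 12.7% of all measured genes. These shares are not of like depth. Of the 16609 measured genes 9664 had at least 100 recovered reads, whereas every measured neighbour except IQCD had more than 100. With scaling by total recovered reads, the intervals of TPCN1, RPL6 and SPPL3 would no longer lie below 1. SLC8B1, a mitochondrial sodium-calcium exchanger beside OAS2, was at 195 in the SMAD4-siRNA library and 275 in the NC-siRNA library, a ratio of 0.710 (0.619 to 0.814). On the far side of OAS1, PTPN11, the phosphatase SHP2, had 0.971 (0.891 to 1.06) and RPL6, a ribosomal protein, 0.952 (0.929 to 0.976). Flanking OASL, C14H12orf43 had 1.16 (1.02 to 1.31) and ANKRD13A, a ubiquitin-binding protein, 0.745 (0.680 to 0.815). The others were IQCD at a ratio of 1.14, TPCN1 at 0.884, SPPL3 at 0.797, GIT2 at 0.745 and TCHP at 0.543. RPH3A overlaps OAS1 in that annotation and was listed at 0 in both libraries.

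**Figure D5:**
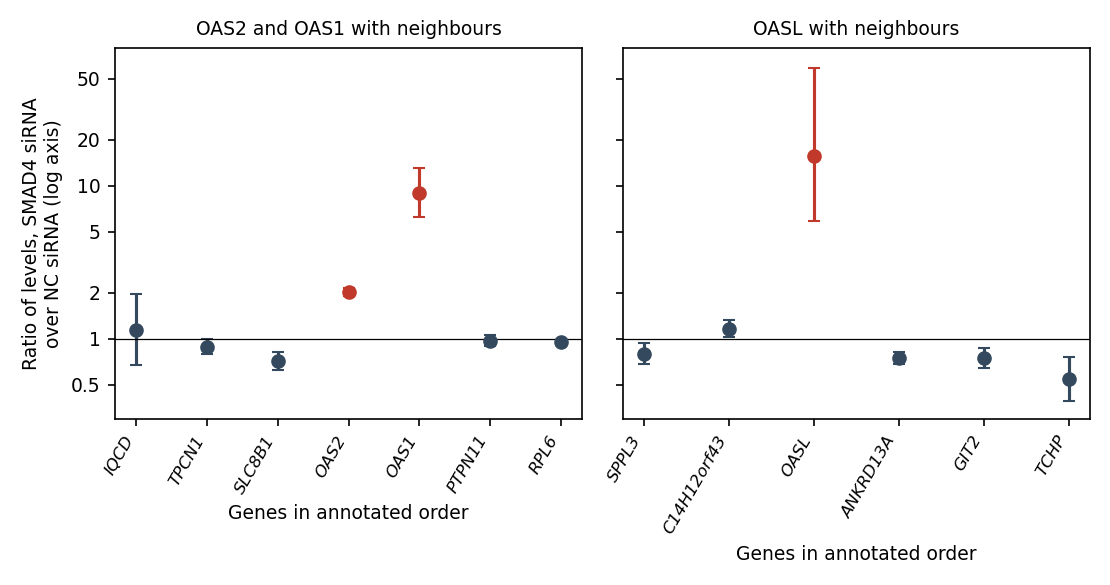
Ratio of levels, SMAD4-siRNA over NC-siRNA (log axis, exact 95% counting intervals), for genes with reads in their annotated order around OAS2 and OAS1 (left) and around OASL (right). The synthetases (red) stand at 2.03, 8.92 and 15.7, and their neighbours (dark) between 0.543 and 1.16.

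Markers of other cells were set beside these values. Of 12 leukocyte markers, 7 were measured, with a summed level of 627 in the SMAD4-siRNA library and 646 in the NC-siRNA library. CD14 gave most of that sum, at 566 in the SMAD4-siRNA library and 579 in the NC-siRNA library. The defining marker PTPRC had 2 reads in the SMAD4-siRNA library and 1 in the NC-siRNA library, and CD3E and CD163 were listed at 0 in both. NCF1, a neutrophil oxidase subunit, was higher at 10.4 in the SMAD4-siRNA library and 0.953 in the NC-siRNA library, on 12 reads and 1 read. CD79A, a B cell receptor subunit, was lower at 4.57 in the SMAD4-siRNA library and 17.1 in the NC-siRNA library, on 5 reads and 17 reads. The leukocyte factor SPI1 was at 37.6 in the SMAD4-siRNA library and 39.8 in the NC-siRNA library. Of 7 endothelial markers, 4 were measured, with sums of 341 in the SMAD4-siRNA library and 445 in the NC-siRNA library. PECAM1, at 240 and 275, and ERG, at 97.2 and 167, gave most of these sums. The ratio of ERG was 0.582 (0.442 to 0.763). TEK and TIE1 were listed at 0. Of 5 theca markers, COL1A1 and DCN were measured, with ratios of 1.06 (1.01 to 1.11) and 0.743 (0.707 to 0.781). COL1A1 was at 14344 in the SMAD4-siRNA library and 13567 in the NC-siRNA library, and DCN at 1598 and 2151. Both were above every measured granulosa marker in each library. CYP17A1, INSL3 and LHCGR were listed at 0. Of 4 erythroid markers HBB alone was measured, at 4.11 in the SMAD4-siRNA library and 4.53 in the NC-siRNA library.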

How the data were processed

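RNA from 2 pooled samples was sequenced on an Ion Torrent Proton after preparation with the Ion Total RNA-Seq Kit, per the labels. The authors deposited RPKM values scaled by the upper quartile, per the file names; the aligner, counter, genome build and annotation are not given in the sources used for this work. Values were used as deposited. Whole reads were recovered with divisors of 980 (SMAD4-siRNA) and 890 (NC-siRNA), whose quotient is the commonest ratio of values, 0.908163, at the smallest whole length of up to 40000 bases that gave whole reads in both libraries (relative tolerance 2e-09, absolute tolerance 1e-06). All 18428 genes above 0 were resolved, and 42 tRNA entries came out at a median of 71.5 bases. The true reads can be whole multiples of these.

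Ratios are SMAD4-siRNA over NC-siRNA on plain values. Counts and medians use log2 (value + 1), at a mean level of at least 1, and a gene counted as 2-fold higher from a log2 ratio of 1. No test was made, as each group has 1 library. Names came from the tables and, for 2090 of 19902 entries without a symbol and 196 older symbols, from the Sscrofa11.1 reference table. The family and all gene lists were chosen with earlier results of these data known. Named were the 3 synthetases, the 2-5A partners and the 2 highest and 2 lowest ratios with at least 20 reads in each list. The 3 genes nearest in ratio and the 3 neighbours on each side were named too. STAT2, IRF9, IRF1, MB21D1, MED29, BST2, marker genes and those listed at 0 or without an entry were named after their values were seen. Some genes of the pathway are not reported here. The split of reads and the cover of the intervals were tested on data simulated from the recovered reads and lengths. Such data cannot test whether the true reads or lengths were recovered. Python 3.11.15, scipy 1.17.1, pandas 2.3.3, numpy 2.4.6 and matplotlib 3.10.9 were used.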

Additional observations from a re-analysis of the deposited data

How the results depend on the processing

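No paired analysis was possible because each group has 1 library. Rescaling each library to the same sum of values adds 0.12 to every log2 ratio, and scaling by total recovered reads adds 0.16. The log2 ratio of OAS2, 1.02 with the deposited scaling, was then 1.14 and 1.18, outside its narrow counting interval and in the same direction. Centring, either on the median log2 ratio or on its trimmed mean, and pseudocounts of 0.1, 1 and 5, left it between 1.01 and 1.08. OAS1 ran from 3.03 to 3.32 over its 7 alternatives, inside its interval. OASL ran from 2.80 with a pseudocount of 5 to 4.13 with scaling by total reads, also inside its interval. All 3 members stayed past 2-fold under 7 of the 9 alternatives tried for that count. At 4-fold OAS1 and OASL remained, and with at least 100 reads over both libraries, a minimum chosen after seeing the data, OAS1 and OAS2. Of the interferon-stimulated effectors, 14 at 2-fold became 23 at 1.5-fold and 4 at 4-fold, as those thresholds bring about, and between 12 and 14 under the other 7 alternatives. The interval calls of other genes were not rerun. The added 0.16 would leave the intervals of MAVS, SAMHD1, TYK2, STAT2, IRF9, TPCN1, RPL6 and SPPL3 no longer wholly below 1. Depth limits OASL most, with 4 recovered reads in the NC-siRNA library. If these are its true reads, counting error alone leaves its ratio between 5.85 and 59.1, before any spread between animals.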

Other observations

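Among the 13 genes with at least as many recovered reads as OAS2 and a higher ratio, 7 have a symbol. They were named after their values were seen. SLA-5, SLA-1 and SLA-3, porcine MHC class I genes, were at 4389, 14053 and 10923 in the SMAD4-siRNA library, against 1344, 4957 and 4214 in the NC-siRNA library. B2M, the light chain of MHC class I, was at 55801 in the SMAD4-siRNA library and 24855 in the NC-siRNA library, and ISG12(A), an interferon-induced gene, was at 41205 in the SMAD4-siRNA library and 17182 in the NC-siRNA library. LGALS9, a galectin, and S100A11, a calcium-binding protein, completed the group at 3374 and 9453 in the SMAD4-siRNA library, against 1090 and 2571 in the NC-siRNA library. The other 6 entries carry no symbol.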
